A study of Mus musculus with 16 samples.

Results

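The interferon regulatory factor (IRF) genes Irf1, Irf2, Irf3, Irf4, Irf5, Irf7, Irf8 and Irf9 were examined through their H3K27ac peaks in bone marrow-derived macrophages (BMDMs), primary cells grown from mouse marrow. A peak was assigned to a gene when it lay within 50 kb of any annotated start site of that gene in the mm10 genome build. The 8 genes, of 21911 protein-coding genes, had 75 of the 43533 Control peaks, 80 of the 40708 IFNγ peaks, 83 of the 44090 PJ34 peaks and 78 of the 42960 IFNγ+PJ34 peaks. Overlapping peaks of the 4 lists merged into 94 regions near these genes, of 55203 regions in all. In mm10, Irf1 (ENSMUSG00000018899.16) lies at chr11:53770014-53778374, Irf2 (ENSMUSG00000031627.9) at chr8:46739732-46847458 and Irf3 (ENSMUSG00000003184.15) at chr7:44997648-45002848. Irf4 (ENSMUSG00000021356.10) lies at chr13:30749226-30766976, Irf5 (ENSMUSG00000029771.12) at chr6:29526625-29541871 and Irf7 (ENSMUSG00000025498.15) at chr7:141262706-141266481. Irf8 (ENSMUSG00000041515.10) lies at chr8:120736358-120756694 and Irf9 (ENSMUSG00000002325.15) at chr14:55603571-55610030. All but Irf7 are on the plus strand.

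The macrophages were differentiated in culture from the marrow of C57BL/6 mice aged 8 to 12 weeks. They were left untreated (Control), treated for 1 h with 100 ng/mL interferon gamma (IFNγ), treated with PJ34 at 20 µM, or given PJ34 1 h before IFNγ (IFNγ+PJ34, also called both agents). PJ34 inhibits the catalytic activity of poly(ADP-ribose) polymerases. Each condition had 2 ChIP samples and 2 input samples, and the authors combined both replicates of a condition into a single peak list. No value of a single replicate was therefore available, no test across replicates was made, and all differences below are differences between 4 lists. A peak is called higher or lower in a list as a description. In bulk chromatin, a mark in more cells and more of the mark per cell cannot be told apart.

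IRFs are transcription factors that share a DNA-binding domain and recognise interferon-stimulated response elements (ISREs), which carry repeated GAAA cores. Genes that respond to IFNγ often carry gamma-activated sites (GAS) of the form TTCNNNGAA. Irf1 is a classical IFNγ-induced gene and an activator, and Irf2 competes with it for ISREs. Irf8 is a myeloid lineage factor that is also induced by IFNγ, and Irf9 is the DNA-binding subunit of the complex ISGF3, which acts at ISREs. Irf3, Irf5 and Irf7 act downstream of nucleic acid sensors and Toll-like receptors, whereas Irf4 serves in lymphocytes and in alternatively activated macrophages. H3K27ac marks active promoters and enhancers.

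The promoters with a GAS match are shown first, because GAS elements are known from IFNγ-responsive genes. In the RefSeq windows around start sites (250 bases before and 50 after, GRCm38.p6), 3 of the 8 IRF genes had a match to TTCNNNGAA, against 9.02% of 16522 genes. The ISRE pattern GAAANNGAAA, searched on both strands, was matched in 1 of 8, Irf2, against 4.02% of genes. The GAS pattern reads the same on both strands and was counted once. The 250 bases before the start site are printed 5′ to 3′ on the plus strand, on which all 3 genes lie, with GAS and ISRE matches in capitals.
Irf1 promoter, chr11:53769764-53770013: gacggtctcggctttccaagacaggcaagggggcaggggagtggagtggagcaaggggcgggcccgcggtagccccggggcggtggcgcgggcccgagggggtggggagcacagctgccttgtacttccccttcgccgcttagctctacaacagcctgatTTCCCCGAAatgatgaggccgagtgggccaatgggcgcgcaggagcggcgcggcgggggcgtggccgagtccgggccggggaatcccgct
Irf2 promoter, chr8:46739495-46739744: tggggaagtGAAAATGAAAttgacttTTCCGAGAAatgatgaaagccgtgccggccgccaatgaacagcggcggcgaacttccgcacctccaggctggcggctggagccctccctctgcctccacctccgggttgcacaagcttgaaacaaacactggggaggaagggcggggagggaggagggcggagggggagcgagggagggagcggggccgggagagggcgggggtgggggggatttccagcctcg
Irf8 promoter, chr8:120736108-120736357: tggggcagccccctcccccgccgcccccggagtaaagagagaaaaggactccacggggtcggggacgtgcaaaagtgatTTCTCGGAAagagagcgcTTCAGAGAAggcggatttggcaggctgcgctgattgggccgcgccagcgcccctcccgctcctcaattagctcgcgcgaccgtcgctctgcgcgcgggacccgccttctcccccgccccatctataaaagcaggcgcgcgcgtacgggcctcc

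The Irf1 match, TTCCCCGAA, began 90 bases before the RefSeq start site. The Irf2 promoter held an ISRE match that began 241 bases before the start and a GAS match that began 224 bases before it. The Irf8 promoter held a pair of GAS matches, which began 171 and 153 bases before the start. A match is a description of the letters and does not show that a factor was bound.

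Over all regions, promoters included, GAS and ISRE matches whose first bases lay within 50 bases of each other occurred in 3 of the 94 regions near IRF genes (3.19%, exact Clopper-Pearson 95% interval 0.663 to 9.04) and in 1.10% of all 55203 regions. The interval covers counting error only and includes the share of all regions. The shares were not matched for region length. The Irf2 promoter pair above was 1 of these, and the other stretches lay upstream of Irf1 and inside Irf2. They are shown with a selected pair of upstream sites that match the stricter pattern TTCCNGGAA. Strict matches not printed lay in a region found in IFNγ+PJ34 alone (6.95 kb from an Irf1 start site) and in one found in Control alone (47.0 kb from an Irf2 start site). Others lay upstream of Irf3 and in the regions over the Irf5 and Irf8 promoters. Strict matches were thus not confined to regions higher with IFNγ. All stretches are on the plus strand with matches in capitals.
Irf1, chr11:53762981-53763056: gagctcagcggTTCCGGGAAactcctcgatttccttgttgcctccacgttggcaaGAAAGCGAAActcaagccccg
Irf1, chr11:53763627-53763635 with 11 flanking bases: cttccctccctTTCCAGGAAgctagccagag
Irf2, chr8:46778491-46778556: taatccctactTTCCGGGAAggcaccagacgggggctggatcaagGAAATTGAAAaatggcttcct
Irf8, chr8:120715439-120715447 with 11 flanking bases: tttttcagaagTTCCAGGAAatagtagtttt

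All 8 IRF genes had a peak within 1 kb of a start site in all 4 lists, which was true of 48.0% of all genes. Peaks were ranked by their score within each list, and the score percentile is that rank, with 100 the highest. The fold enrichment is the authors' ratio of ChIP signal to local background. Apart from Irf4, which stood between 27.04 and 45.1, the highest promoter peak of every IRF gene was at percentile 86.4 or higher in each list. Weaker peaks within 1 kb of a start site, such as those at the inner start site of Irf2 (chr8:46791223-46793518, percentiles 68.6, 73.3, 74.5 and 67.3), were below that.

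At the Irf1 promoter (chr11:53768008-53776638, a region that runs from upstream into the gene body), the fold enrichment was 73.1 in Control, 61.3 with IFNγ, 33.9 with PJ34 and 42.1 with both agents. The score percentile there was 98.3, 99.1, 91.3 and 97.0 in the same order. The lists without PJ34 thus gave the higher folds. IFNγ was below Control in fold and slightly above it in percentile.

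At the Irf8 promoter (chr8:120735444-120746069), the fold enrichment was 28.6 in Control, 51.8 with IFNγ, 14.9 with PJ34 and 32.6 with both agents. The score percentile was 90.5, 98.0, 86.6 and 94.1. Irf8 was the single IRF gene whose highest promoter peak had a larger fold in IFNγ than in Control, as deposited. It was also larger with both agents than with PJ34 alone.

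The Irf2 promoter (chr8:46737666-46743726) had folds of 85.8, 68.8, 54.1 and 50.8 in Control, IFNγ, PJ34 and IFNγ+PJ34. The Irf5 promoter (chr6:29522266-29532068) had folds of 82.1, 63.4, 42.4 and 48.5. Both were highest in Control, and both regions were broad.

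The Irf7 promoter (chr7:141264339-141266895) had folds of 59.1 in Control, 24.4 with IFNγ, 33.3 with PJ34 and 45.2 with both agents. Its score percentile was 96.9, 92.8, 89.9 and 99.2, lowest with PJ34 and highest with both agents. Irf7, which amplifies type I interferon production, therefore had its lowest promoter fold in the IFNγ list.

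The Irf9 promoter (chr14:55602478-55606051) had folds of 59.1, 41.5, 48.2 and 31.8 in Control, IFNγ, PJ34 and IFNγ+PJ34. The Irf3 promoter (chr7:44996608-44999152), a region shared with the start of the neighbouring gene Bcl2l12, had folds of 32.1, 21.6, 23.3 and 22.0. Both were highest in Control.

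The Irf4 promoter (chr13:30749204-30749792) had folds of 4.93, 4.52, 3.50 and 3.94. Its peak was 454 bp wide in Control and 272 bp wide in IFNγ+PJ34, so the mark at this promoter was narrow and low in each list.

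**Figure D1:**
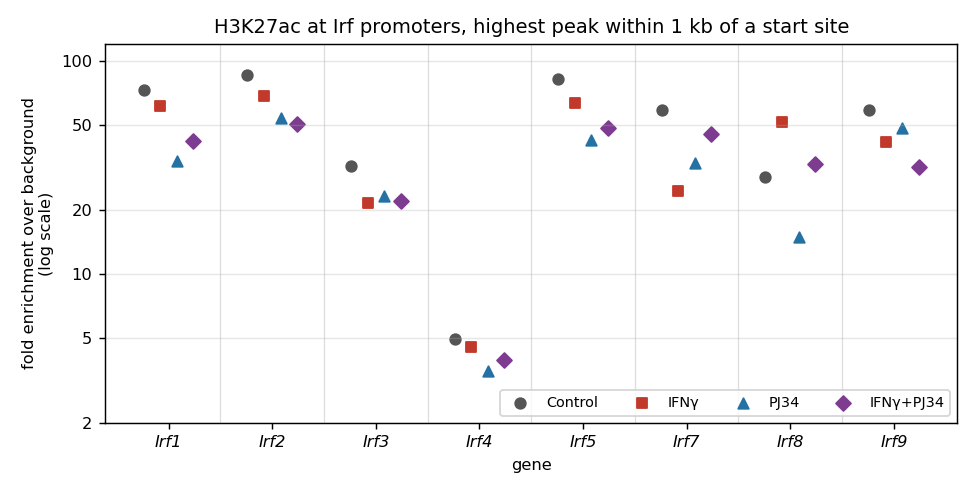
Fold enrichment (log scale) of the highest H3K27ac peak within 1 kb of a start site for each of the 8 IRF genes in the Control, IFNγ, PJ34 and IFNγ+PJ34 lists, 1 point per list. Irf8 is the gene whose IFNγ point (51.8) lies above its Control point (28.6), and Irf4 lies below 5 in all 4 lists.

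The promoter regions also differed in breadth. The summed width of peaks at the Irf5 promoter ran from 8617 bp in IFNγ+PJ34 to 9331 bp in Control, and that at Irf8 from 7463 bp in PJ34 to 10121 bp in Control. Among genes with a promoter peak, Irf8 was at the 98.8th percentile of width in Control and Irf5 at the 98.4th. The Irf1 promoter was wider in the 3 treated lists than in Control, with 6153 bp in Control, 6802 bp with IFNγ, 8505 bp with PJ34 and 7784 bp with both agents. Irf3, Irf7 and Irf9 were narrower, at 2545, 2518 and 3445 bp in Control.

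Since the lists differed in their overall level, a difference in fold enrichment is given below as a log2 ratio from which the median over all regions found in both lists was subtracted. That median was −0.36 for IFNγ against Control, −0.18 for PJ34 against Control, 0.14 for IFNγ+PJ34 against IFNγ and −0.07 for IFNγ+PJ34 against PJ34. A value above 0 means a ratio larger than that of the median region. At the promoters this value for IFNγ against Control was 1.22 for Irf8, 0.24 for Irf4, 0.11 for Irf1 and 0.04 for Irf2. It was −0.01 for Irf5, −0.15 for Irf9, −0.21 for Irf3 and −0.91 for Irf7, so that Irf1, Irf2 and Irf4 were below Control as deposited and above the median region. Distances are in kb from the nearest start site to the near edge of the region, with negative values upstream.

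In the 3 treated lists the highest-ranked Irf1 region was not the promoter but lay upstream of it, at −4.24 kb (chr11:53760638-53765770), in the region that holds both strict GAS matches and the ISRE match shown above. The fold enrichment there was 34.8 in Control, 72.0 with IFNγ, 75.1 with PJ34 and 94.9 with both agents. The score percentile was 97.2, 99.9, 99.3 and 100. All 3 treated lists were above Control, PJ34 alone included. The relative log2 difference was 1.41 for IFNγ against Control, 1.29 for PJ34 against Control and 0.41 for IFNγ+PJ34 against PJ34.

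Next to it, at −3.14 kb, a smaller Irf1 region was found with IFNγ (percentile 38.4), PJ34 (25.3) and both agents (21.9) and in no Control peak. Downstream, at 23.3 kb within an intron of the neighbouring gene model Gm12216, the percentile was 66.8 in Control, 34.3 with IFNγ, 46.0 with PJ34 and 56.4 with both agents. Every other Irf1 region outside the promoter was at percentile 52.9 or lower where it was found. The gene model Gm17334, which overlaps Irf1, has the nearest start site to all regions downstream of the Irf1 promoter.

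At Irf8, some regions upstream of the gene were higher in the IFNγ list than in Control, and others, given below, were lower. The region at −18.5 kb (chr8:120714605-120717849), which holds the strict GAS match shown above, had folds of 14.9 in Control, 46.0 with IFNγ, 19.9 with PJ34 and 29.2 with both agents. Its score percentile was 80.6, 95.7, 82.3 and 94.2. Both lists with IFNγ were above both lists without it.

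The region at −24.0 kb (chr8:120710471-120712311) had a score percentile of 3.96 in Control, 65.9 in IFNγ and 43.6 in IFNγ+PJ34, with no PJ34 peak. It was the single IRF region that moved up by 20 points or more between Control and IFNγ. The folds there were 2.69, 9.47 and 5.85. Its neighbours at −27.0 and −26.0 kb had no Control peak, and their IFNγ percentiles were 46.7 and 44.0. Both neighbours were also found with PJ34 without IFNγ, at percentiles 25.3 and 15.3, and with both agents, at 8.96 and 27.04.

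At −15.0 kb the Irf8 folds were 23.8 in Control, 26.0 with IFNγ, 12.2 with PJ34 and 9.97 with both agents. At −33.7 kb they were 4.56, 7.37, 3.44 and 4.21. In these regions the IFNγ list was highest and the lists with PJ34 were lower.

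The opposite order held at −38.6 kb (chr8:120696074-120697757), where the fold was 28.6 in Control against 5.16 with IFNγ, 5.91 with PJ34 and 5.85 with both agents. All 3 treated lists were low there. The percentile was 84.8 in Control and 46.7, 54.8 and 59.4 in the treated lists. Cox4i1, which encodes a subunit of cytochrome c oxidase, has the nearest start site to this region, and the long gene model Gm20388 spans it. At −35.7 kb the fold was also highest in Control, at 13.8, against 7.37 with IFNγ, 6.89 with PJ34 and 5.85 with both agents.

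Of the 10 Irf8 regions found in both lists, 7 had a relative log2 difference above 0 for IFNγ against Control, and their median over the 10 was 0.59. Of the 11 found in both IFNγ and IFNγ+PJ34, 10 were below 0 for IFNγ+PJ34 against IFNγ, with a median of −0.80. Against PJ34 alone, 6 of 11 were above 0 for IFNγ+PJ34, with a median of 0.05. Regions of a single locus are neighbours and are not independent of each other, and for all regions the median is 0 by construction. The IFNγ list is the upper term of IFNγ against Control and the lower term of IFNγ+PJ34 against IFNγ. A high value in that list alone therefore moves these comparisons in opposite directions.

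**Figure D2:**
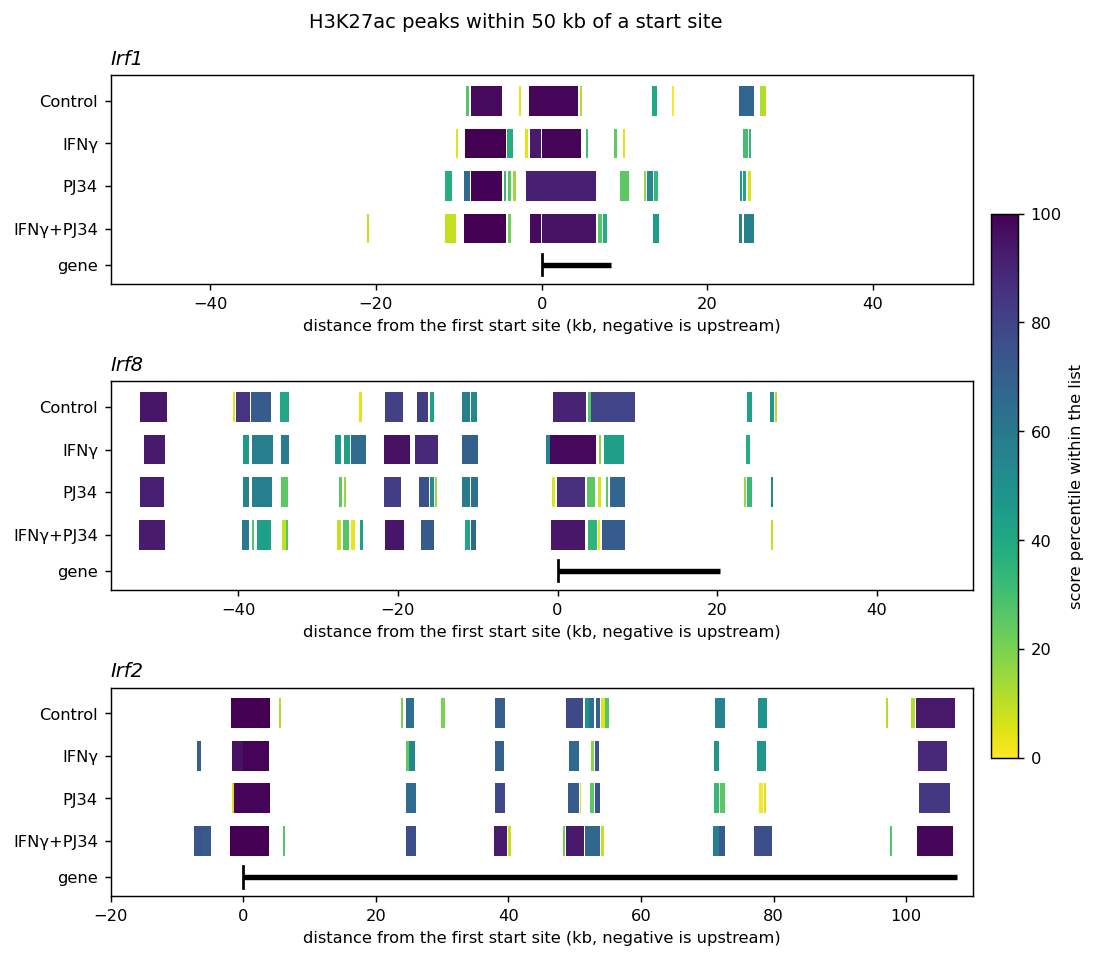
H3K27ac peaks within 50 kb of the start sites of Irf1, Irf8 and Irf2 in the 4 lists, drawn by distance from the first start site (kb, negative upstream) and shaded by score percentile within the list. The black bar is the gene with its start as a tick. The Irf8 region whose near edge is at −18.5 kb is darker in both lists with IFNγ (percentiles 95.7 and 94.2) than in Control (80.6) or PJ34 (82.3).

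Irf2 showed another order, with the highest ranks in IFNγ+PJ34 at regions inside the gene. At −13.9 kb from the inner start site (chr8:46777557-46779569), in the intron that holds the GAS and ISRE stretch shown above, the fold was 9.98 in Control, 8.63 with IFNγ, 16.6 with PJ34 and 30.4 with both agents. The score percentile there was 70.6, 69.8, 78.2 and 92.6. IFNγ alone was not above Control, whereas both agents together gave the highest value.

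At −2.32 kb from the same start site (chr8:46788354-46791181) the Irf2 percentile was 78.3 in Control, 65.9 with IFNγ, 71.6 with PJ34 and 93.3 with both agents. At 17.1 kb it was 54.8, 46.7, 32.8 and 72.5, and at 23.3 kb it was 49.1, 46.7, 5.78 and 76.1. At 24.5 kb from the outer start site it was 64.0, 53.7, 65.3 and 75.8. In each of these regions the IFNγ+PJ34 list was the highest of the 4.

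The 3′ end of Irf2 carried a broad region at 47.7 kb (chr8:46841236-46847149) with folds of 42.0, 20.1, 20.4 and 47.6 in Control, IFNγ, PJ34 and IFNγ+PJ34. Of the 9 Irf2 regions found in both IFNγ and IFNγ+PJ34, 7 were above 0 for IFNγ+PJ34 against IFNγ on the relative log2 scale, and the median was 1.10. The exceptions were both promoter regions, at −0.58 and −0.30. Of the 16 Irf2 peaks in the IFNγ+PJ34 list, 5 overlapped no peak of another list, compared with 10 of 78 over all IRF genes and 5758 of 42960 over all peaks.

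The regions nearest to Irf7 also ranked highest with both agents. The one at −1.11 kb (chr7:141267589-141269889) had folds of 14.7 in Control, 17.6 with IFNγ, 6.65 with PJ34 and 27.5 with both agents. The relative log2 difference between IFNγ+PJ34 and PJ34 was 2.11. The highest-ranked Irf7 region in Control was at 35.8 kb, over the promoter of Phrf1, with percentiles of 99.0, 98.8, 99.1 and 98.5.

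The Irf3 and Irf9 neighbourhoods are dense in other genes, and 1 of the 7 Irf3 regions and 1 of the 10 Irf9 regions had the IRF gene as the nearest start site. Near Irf3, the region at 19.9 kb over the promoter of Rras, a small GTPase gene, had percentiles of 90.7, 87.1, 90.1 and 64.3 in Control, IFNγ, PJ34 and IFNγ+PJ34. The region at 17.0 kb between Scaf1 and Rras was highest-ranked near Irf3, with percentiles of 96.7, 93.0, 96.3 and 87.2. A weak region at −26.9 kb in Cpt1c moved from 36.8 in Control to 4.55 in IFNγ. All 5 Irf3 regions found in both IFNγ and IFNγ+PJ34 were below 0 on the relative log2 scale, with a median of −0.70.

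Near Irf9, the region at 37.9 kb over the promoter of Tm9sf1 had percentiles of 99.6, 99.6, 99.6 and 99.8. The region at −10.5 kb, shared by Psme2, which encodes a proteasome activator subunit, and Rnf31, had percentiles of 99.1, 98.9, 99.6 and 99.4. These regions stood among the highest of their lists in every condition. At 30.2 kb, over the promoter of Ipo4, the percentile was 74.8 in Control, 48.7 with IFNγ, 75.4 with PJ34 and 53.0 with both agents, lower in both lists with IFNγ.

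Irf5 had little besides its broad promoter region. A region at −12.8 kb stood at percentile 50.7 in Control, 0.856 in PJ34 and 31.8 in IFNγ+PJ34, with no IFNγ peak. The remaining 6 Irf5 regions were at percentile 38.4 or lower in each list where they were found. Of these, the region at 7.11 kb, over an exon, was found in IFNγ (17.0) and in IFNγ+PJ34 (38.4) and in no list without IFNγ. At Irf4, no region other than the promoter was above percentile 29.9 in any list.

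An IFNγ peak that no Control peak overlapped by 1 bp or more is called gained. All IRF genes but Irf3, 7 of 8, had a gained peak within 50 kb, compared with 26.0% of all genes. IRF genes had more peaks in reach than a typical gene, with a median of 10.5 IFNγ peaks against 2. Among genes with 5 or more IFNγ peaks within 50 kb, 54.8% had a gained peak. Over peaks, 19 of 80 IFNγ peaks near IRF genes were gained, a share of 23.8% (95% interval 14.9 to 34.6) against 16.8% of all IFNγ peaks, a background inside that interval. Irf1 had 6 of the gained peaks, Irf4 had 4, Irf5 and Irf8 had 3 each, and Irf2, Irf7 and Irf9 had 1 each.

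The gained peaks were mostly weak. Their median score percentile was 24.3, the same as the median of all 6842 gained peaks, and 2 of the 19 stood in the upper part of the list, above percentile 50. The higher of these was −6.40 kb from Irf2 (chr8:46732692-46733337), with a fold of 10.7 and a percentile of 69.3 in IFNγ, and a fold of 15.1 and a percentile of 74.0 in IFNγ+PJ34. It was found in neither Control nor PJ34. The other was just upstream of the Irf8 promoter, at −0.954 kb (chr8:120734871-120735404), with a fold of 6.18 and a percentile of 55.0 in IFNγ, and no PJ34 or IFNγ+PJ34 peak. It lay 327 bp from a Control peak.

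Of the 19 gained peaks, 7 were found in IFNγ+PJ34, or 36.8% (16.3 to 61.6), against 38.8% of all gained peaks. In PJ34 without IFNγ, 10 were found, or 52.6% (28.9 to 75.6), against 43.6%. Both intervals include the background. More of them were found with PJ34 alone, where no IFNγ had been given, than with both agents, although the intervals overlap widely. This order depends on the 1 bp rule. With an overlap of at least 50% of the queried peak, 7 of 20 were found with PJ34 alone and 6 of 20 with both agents. In the higher-scoring 50% of each list it was 1 of 5 for each. Of the 19, 5 were in both lists, 2 in IFNγ+PJ34 and not PJ34, 5 in PJ34 and not IFNγ+PJ34, and 7 in neither. The shares of all gained peaks were 15.2%, 23.5%, 28.3% and 32.9% in that order, each inside the interval of the IRF share.

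The Irf1 gained peaks ranged from percentile 4.55 to 38.4, and the highest was the one at −3.43 kb. Those at −1.64 and 4.83 kb lay within the Irf1 promoter region, 127 and 473 bp from the nearest Control peak. They counted as found in PJ34 because the broad PJ34 promoter peak (percentile 91.3) overlapped them. The 4 gained peaks at Irf4, at −4.84, 0.772, 18.3 and 43.6 kb, had percentiles of 17.0, 4.55, 4.55 and 29.9, and none was found in IFNγ+PJ34. The 3 at Irf5, at 7.15, 7.92 and 27.5 kb, had percentiles of 17.0, 10.4 and 34.3. The single gained peaks of Irf7 (46.6 kb, nearest to Rassf7) and Irf9 (−9.72 kb, within Rnf31) had percentiles of 24.3 and 17.0.

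**Figure D3:**
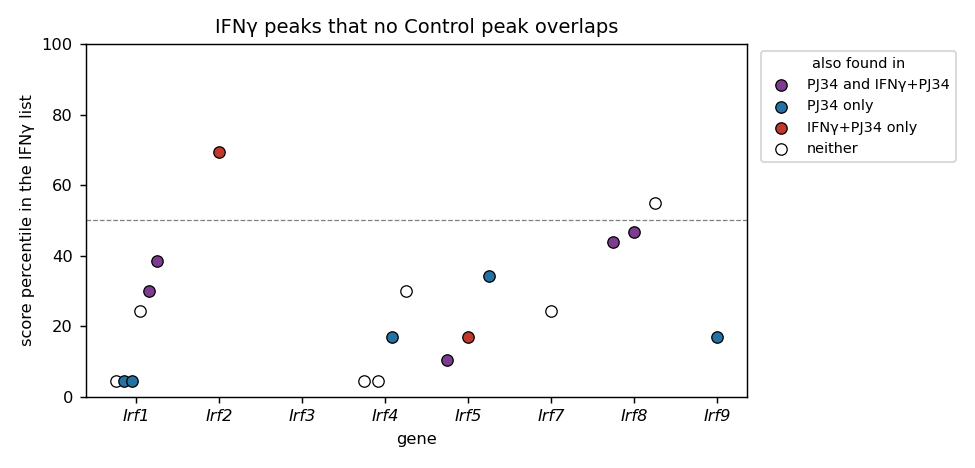
Score percentile in the IFNγ list of the 19 IFNγ peaks within 50 kb of an IRF start site that no Control peak overlapped, by gene, coloured by the PJ34-containing lists in which they were also found. The dashed line marks percentile 50, and the 2 peaks above it belong to Irf2 (69.3) and Irf8 (55.0).

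In the reverse direction, 22 of 75 Control peaks near IRF genes were absent from IFNγ, or 29.3% (19.4 to 41.0), against 31.7% of all Control peaks. At the gene level, 6 of 8 IRF genes had such a peak, against 43.7% of genes. IRF genes had a median of 8 Control peaks, 10 PJ34 peaks and 9 IFNγ+PJ34 peaks in reach, against 3 for all genes in each of these lists, and the shares of genes given here and in the next paragraph were not matched for that. Of the Control peaks, 18 of 75 were absent from PJ34 (24.0%, background 25.1%), and 15 of 83 PJ34 peaks were absent from Control (18.1%, background 19.5%). A PJ34 peak absent from Control lay within 50 kb of 5 of 8 IRF genes, against 29.0% of genes. Each share of peaks was close to its background.

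Between the lists with IFNγ, 19 of 80 IFNγ peaks were absent from IFNγ+PJ34 (23.8%, background 24.1%), and 19 of 78 IFNγ+PJ34 peaks were absent from IFNγ (24.4%, background 27.2%). Between the lists with PJ34, 15 of 78 IFNγ+PJ34 peaks were absent from PJ34 (19.2%, 11.2 to 29.7, background 25.7%). An IFNγ+PJ34 peak of this kind lay near 5 of 8 IRF genes, against 34.7% of genes. In turn, 15 of 83 PJ34 peaks were absent from IFNγ+PJ34, or 18.1% (10.5 to 28.0), against 31.6% of all PJ34 peaks. This was the one presence comparison in which the background lay outside the interval of the IRF peaks.

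Of the 94 regions, 39 were found in all 4 lists, or 41.5% (31.4 to 52.1), against 38.9% of all regions. Of the 94, a further 14 were found in Control alone (14.9%, background 11.8%) and 10 in IFNγ+PJ34 alone (10.6%, background 10.4%). Another 7 were found in IFNγ alone (7.45%, background 4.07%) and 3 in PJ34 alone (3.19%, background 8.93%). Presence in both lists with IFNγ and in neither without it was seen in 2 regions, at Irf2 (−6.27 kb) and Irf5 (7.11 kb). That share, 2.13%, was near the background of 2.29%.

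Moves in rank were few. Of 44 regions found in both Control and IFNγ, 1 moved up by 20 percentile points or more, against 7.39% of all regions, and 4 moved down, against 15.6%. Both backgrounds were inside the intervals of the IRF shares (0.0575 to 12.0 and 2.53 to 21.7). The 1 was the Irf8 region at −24.0 kb, and the 4 were described above at Irf1, Irf3, Irf8 and Irf9. The median shift over the 44 regions was −1.47 points, against −2.31 over all 25923 such regions. For PJ34 against Control, 0 of 48 regions moved up by that amount, which allows a share of up to 7.40% (background 8.31%), and 7 moved down (background 9.87%). For IFNγ+PJ34 against IFNγ, 7 of 46 moved up, 5 of them at Irf2, against 13.9%, and 4 moved down, against 10.9%. For IFNγ+PJ34 against PJ34, 6 of 48 moved up (background 12.7%) and 4 moved down (background 16.2%).

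On the relative log2 scale of fold enrichment, 5 of the 44 regions were higher by 1 or more in IFNγ than in Control, against 8.88% of all regions, and 4 were lower by 1 or more, against 9.14%. Of the 5 that were higher, 4 belonged to Irf8 and 1 to Irf1. For IFNγ+PJ34 against IFNγ, 5 of 46 were higher by 1 or more, against 12.0%, and 5 were lower, against 9.59%. All 5 of the higher regions lay at Irf2. Over the 8 genes together, IRF regions were thus near the background in these counts. The per-locus medians for IFNγ+PJ34 against IFNγ ran from −0.80 at Irf8 to 1.10 at Irf2.

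**Figure D4:**
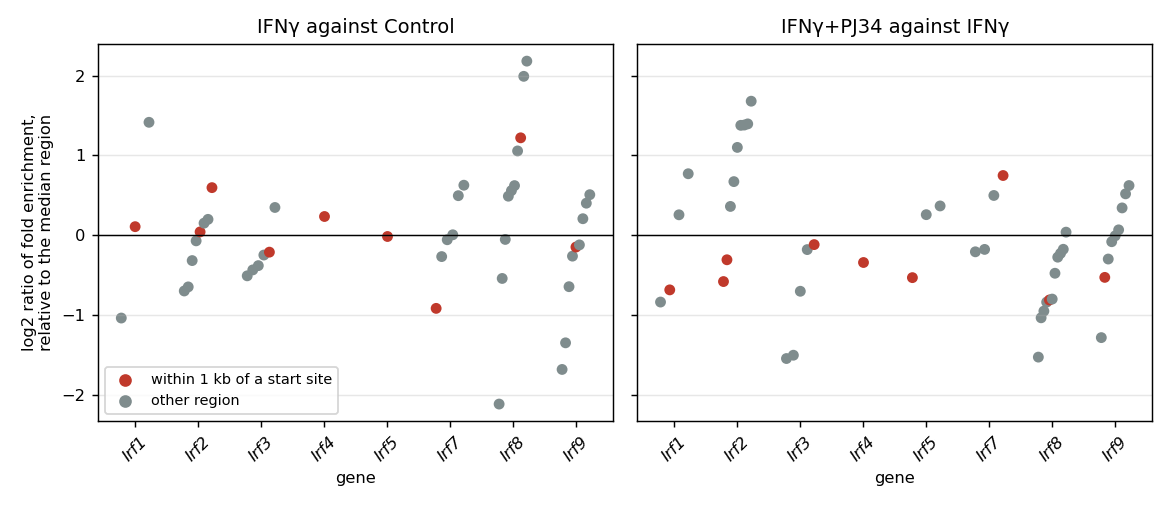
Log2 ratio of fold enrichment relative to the median region for each H3K27ac region near an IRF gene found in both lists, for IFNγ against Control (left) and IFNγ+PJ34 against IFNγ (right), 1 point per region, with regions within 1 kb of a start site in red. Irf8 reaches 2.18 on the left and lies mostly below 0 on the right, where Irf2 reaches 1.68. Both panels share the IFNγ list, as upper term on the left and lower term on the right, so opposite signs are partly built in.

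The length under peaks within 50 kb gave a further measure. It does not use the score or fold itself, but it depends on which peaks were called and how wide they were. For the median of 15281 genes it was shorter in IFNγ than in Control, with a log2 ratio of −0.25, and each gene is read against that. Relative to it, 7 of 8 IRF genes were above 0, with a median of 0.12. Irf4 had the largest value, 1.49, from 878 bp in Control to 2068 bp in IFNγ, through its weak gained peaks. Irf8 was at 0.33 (24667 bp in Control, 26048 bp in IFNγ) and Irf1 at 0.29 (13836 and 14190 bp). Irf7, Irf5, Irf9 and Irf3 were between 0.02 and 0.14, and Irf2 was at −0.22 (21339 and 15378 bp).

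For IFNγ+PJ34 against IFNγ, the covered length relative to the median gene was 0.73 for Irf2, which had 25157 bp in IFNγ+PJ34, and 0.36 for Irf1, which had 17967 bp. It was below 0 for the other 6 genes, with −0.98 for Irf4, −0.31 for Irf8, −0.24 for Irf3, −0.22 for Irf7, −0.16 for Irf9 and −0.01 for Irf5.

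**Figure D5:**
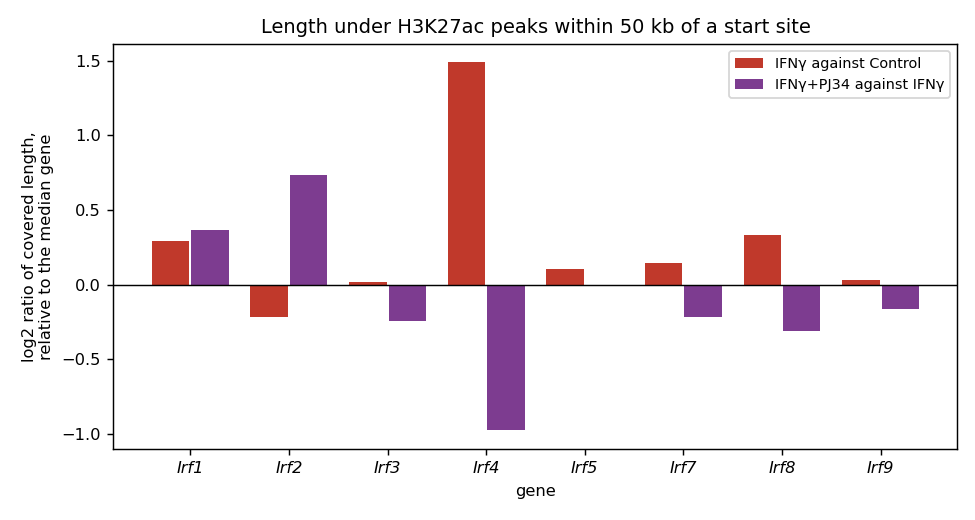
Log2 ratio of the base pairs under H3K27ac peaks within 50 kb of the start sites of each IRF gene, relative to the median of all genes with cover in both lists, for IFNγ against Control and for IFNγ+PJ34 against IFNγ. Irf4 has the extremes of both comparisons (1.49 and −0.98) on the smallest covered length, and Irf2 and Irf1 are the genes above 0 in the second. Both comparisons share the IFNγ list, as upper and then lower term, so opposite signs are partly built in.

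GAS matches were counted in the sequence of the IFNγ peaks. The gained peaks near IRF genes held 1 match to TTCNNNGAA in 8.36 kb, or 0.120 per kb (exact Poisson 95% interval 0.00303 to 0.667), whereas all gained peaks held 0.467 per kb. The single match lay in the gained peak downstream of Irf1, at 9.30 kb. IFNγ peaks near IRF genes that a Control peak overlapped held 30 matches in 97.0 kb, or 0.309 per kb (0.209 to 0.441), against 0.331 per kb in all such peaks. The reversed pattern GAANNNTTC occurred at 0.227 per kb in the same shared peaks. ISRE matches occurred at 0.155 per kb there (0.0865 to 0.255), against 0.181 per kb in all shared peaks.

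The genes whose promoters were most like those of IRF genes were sought over score percentile and log2 width in the 4 lists, 8 values in all, among 10519 genes with a promoter peak in each list. The nearest to Irf8 was Arid5b, with percentiles of 91.6, 97.1, 88.7 and 96.7 in Control, IFNγ, PJ34 and IFNγ+PJ34, at a distance of 0.431 SD units. Next came Zfp106 and Mndal, the latter a member of the interferon-inducible Ifi200 family. The nearest to Irf1 were Nrros, Rasgef1b and Lgals3, to Irf2 Vipas39 and Ahsa1, which share a promoter region, and to Irf5 Osbpl8, Rhbdf2 and Actb. Those for Irf3 were Phyh, Sh3bp5l and Klhdc10, for Irf7 Acap2, Brf1 and Crybg1, and for Irf9 Tlnrd1, Sp1 and Zfp143. Irf4 had no close counterpart, as its nearest gene, Gm14410, was 1.10 SD units away.

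The genes around the IRFs in their pathway were described by the same counts. A gained peak lay within 50 kb of 7 of 8 genes of the IFNγ to IRF signalling list (receptor chains, signal transducers and their inhibitors), of 6 of 12 genes that activate IRFs (sensors, adaptors and kinases), of 5 of 9 IRF partners and of 15 of 20 IRF target genes. The share was 26.0% over all genes and 54.8% over genes with 5 or more IFNγ peaks in reach, and the activation and partner lists were near the latter. The median covered length relative to all genes, IFNγ against Control, was 0.22, 0.11, −0.07 and 0.40 for these lists. The promoter percentile was higher in IFNγ by 20 points or more at 3 of the 18 target genes with a promoter peak in both lists and at 0 promoters of the other lists, against 7.39% of all regions, promoters or not. No promoter of these lists was lower by that amount. Of the remaining target genes, Cxcl9 had no Control promoter peak and stood at 68.5 in IFNγ, and Il12b had a promoter peak in neither. The 3 were Cxcl10 (50.7 in Control, 90.9 in IFNγ), Ciita (61.3 and 84.4) and Nos2 (32.5 and 69.3). At the IRF promoters themselves, the largest such difference was that of Irf8, from 90.5 to 98.0.

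The cell type of the lists was checked against marker promoters. All 10 macrophage markers had a promoter peak in each list, with a median percentile between 91.2 and 98.2. The T cell, fibroblast and epithelial markers (4, 4 and 3 genes) had none. Of the 6 dendritic cell markers, Zbtb46, Clec9a and Xcr1 had a peak in each list and Flt3, Siglech and Ccr7 had none. Of the 4 B cell markers Ms4a1 had one in each list, and of the 4 neutrophil markers S100a8 had one in IFNγ and PJ34, at percentiles 4.55 and 25.3. Their part in the values of Irf4 and Irf8, genes that those lineages also use, was not tested.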

How the data were processed

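H3K27ac ChIP-seq and input DNA were sequenced from BMDMs, 2 samples of each per condition, and groups were taken from the sample titles. According to the study's methods, the authors aligned reads to mm10 with Bowtie, filtered them with Samtools and Picard, called relaxed MACS peaks per replicate against input, and kept peaks found in both replicates. The deposited lists hold, per peak, a whole-number score from 10 to 1000, a fold enrichment (a ratio), a −log10 p-value and a −log10 q-value as written by the authors' peak caller, and the summit offset. The score followed −log10 p (Spearman 0.998 to 0.999 across peaks of a list). Without read counts in the lists, depth is unknown. Relaxed calling lets weak peaks in, and 1.41% to 5.60% of peaks had a q above 0.01.

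Peaks were assigned within 50 kb of GENCODE M21 start sites, compared by overlap of at least 1 bp, and merged into regions with Python 3.11.15, pandas 2.3.3 and scipy 1.17.1. In a region with several peaks the highest value was used and widths were summed. Intervals are exact at 95% and treat peaks as independent. Functions were tested on simulated lists. The genes named are the 8 members, with their promoter, highest-ranked and gained regions, those that moved by 20 points or more between IFNγ and Control or IFNγ+PJ34 and IFNγ, the 3 most alike genes over 1 Mb away (1 of those of Irf2 is not reported here), and pathway genes on which a result turned. The members and lists were chosen with earlier results of these data known. The relative log2 fold and the pairs of motifs were chosen after seeing the values. Promoter sequences are from RefSeq (GRCm38.p6), in which all 8 symbols matched, and equal the genome.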

Additional observations from a re-analysis of the deposited data

Results flagged for a closer look

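At some IRF regions the difference made by IFNγ had one sign in the absence of PJ34 and the other sign in its presence. With a single list per condition, none of these differences was tested. Found in IFNγ and PJ34 alone were the regions at 8.94 kb of Irf1, −4.64 kb of Irf4 and 27.5 kb of Irf5, with IFNγ percentiles of 4.55, 17.0 and 34.3. Found in Control and IFNγ+PJ34 alone was the region at 0.165 kb of Irf2, with a Control percentile of 3.96. All 4 are weak. The first kind made up 3.19% of the IRF regions against 2.70% of all regions, and the second kind 1.06% against 3.64%, so neither was above the background by much.

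Among regions found in all 4 lists, the score percentile at 23.3 kb of Irf1 differed by −32.5 points for IFNγ against Control and by 10.4 points for IFNγ+PJ34 against PJ34. At Irf2 these values were −10.3 and 10.5 at 24.5 kb, −12.4 and 21.7 at −2.32 kb, and −8.14 and 39.7 at 17.1 kb. These were the regions in which both differences were at least 5 points and of opposite sign, with the 5-point limit chosen after seeing the values. The share of all regions that meet this rule was not computed, so these regions are not shown to be unusual.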

How the results depend on the processing

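No paired analysis was possible because each condition's replicates were combined into a single list, and leaving out a replicate could not be run for the same reason. Depth is unknown, and the ranks compare lists that may differ in it. Over 60 recomputed values, 52 stayed within 1.5 times of the reported count or within the reported value's interval. Those intervals are wide, and for covered length the range over the 8 genes was used (−0.22 to 1.49). A change of direction could be seen only for the median rank shift (5 alternatives) and the covered length (4 alternatives), and none occurred there. With the higher-scoring 50% of each list, 3 of 8 IRF genes had a gained peak, the gained peaks numbered 5, the share of gained peaks found in PJ34 was 20.0%, the share of Control peaks absent from IFNγ was 19.05%, and the share of regions in all 4 lists was 61.7%. Within 10 kb, 12 peaks were gained. The stricter GAS pattern and a window of 200 bp around the summit both gave 0 matches per kb in gained peaks, with upper limits of 0.442 and 0.971 per kb. The control pattern GAANNNTTC gave the same 0.120 per kb as GAS there. Counting presence by merged region, an alternative added after seeing the data, gave 6 genes and 16 regions. The cause of these differences was not tested, apart from the shorter lists and windows themselves.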
